A study of Mus musculus with 15 samples.

Results

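The mitochondrial ribosomal protein genes were taken as every gene whose symbol begins with Mrpl or Mrps followed by a number, with at most 1 letter after it. The count tables of both batches held the same 77 such genes, of 46078 genes in batch 1 and 13063 named genes in batch 2, and all 77 passed the filter on low counts. By known placement 50 encode proteins of the large subunit of the mitochondrial ribosome and 26 encode proteins of the small subunit. The remaining gene, Mrps36, was named for the small subunit, but its product is now placed in the 2-oxoglutarate dehydrogenase complex of the citric acid cycle. Mrps18a and Mrps30 carry small-subunit names and are counted here with the large subunit, where their proteins sit.

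The mitochondrial ribosome translates the messenger RNAs of the mitochondrial genome, which all encode subunits of the oxidative phosphorylation complexes. Its ribosomal RNAs are transcribed inside the organelle, whereas all its proteins are encoded in the nucleus, made in the cytosol and imported. Some of these proteins have bacterial homologues, and others are found only in mitochondria. Satellite cells, the stem cells of skeletal muscle, are known to raise mitochondrial content and respiration when they leave quiescence.

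RNA was sequenced from cultured satellite cells of mouse hindlimb muscle, exposed for 24 hours in growth medium with horse serum. In batch 1, 3 libraries came from cells given 0.05 mM adenosine and 3 from cells given DMSO, the vehicle. In batch 2, from C57BL/6J mice, 3 libraries each came from cells given 0.1 mM adenosine, 0.25 mM adenosine monophosphate (AMP, the nucleotide that extracellular enzymes convert to adenosine) and DMSO. No genotype differed between groups, the strain of batch 1 is not in the labels, and the labels do not tie a library to an animal or a culture, so p-values reflect the spread between libraries and that spread may be technical. The question posed by the series title is how raised extracellular purines act on the early activation of these cells.

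Libraries held 14683346 to 20799588 counts in batch 1 and 11107450 to 14201933 in batch 2. Levels between libraries are given as CPM (counts scaled to a fixed library size) after scaling by trimmed mean of M-values (TMM), and levels between genes as the authors' FPKM, which divides by gene length. All 10 myogenic markers were above 1 CPM in every group. Their summed level was 2210 to 3020 CPM in adenosine libraries and 7094 to 7475 CPM in DMSO libraries of batch 1. In batch 2 it was 1896 to 2282 CPM with adenosine, 2239 to 3015 CPM with AMP and 5568 to 6363 CPM with DMSO. Pax7, the transcription factor that marks satellite cells, had 51.9 to 60.6 CPM with adenosine against 60.3 to 68.6 CPM with DMSO in batch 1, but 59.5 to 62.7 CPM with adenosine and 67.3 to 80.2 CPM with AMP against 44.1 to 51.7 CPM with DMSO in batch 2. Summed leukocyte markers were 11 to 17.9 CPM with adenosine against 1.41 to 3.24 CPM with DMSO in batch 1, and 11.5 to 14.2 CPM with adenosine and 11.9 to 14.8 CPM with AMP against 1.92 to 3.71 CPM with DMSO in batch 2. Most of that sum was Cd68, a lysosomal protein. Ptprc and Adgre1, which define leukocytes and macrophages, stayed at or under 1.16 CPM in batch 1 and were not among the batch 2 counts. Ptprc had 0.173 to 1.16 CPM with adenosine against 0 to 0.0674 CPM with DMSO in batch 1. In batch 2 Csf1r had 1.20 to 2.23 CPM with adenosine and 1.53 to 2.76 CPM with AMP against 0.101 to 0.237 CPM with DMSO. Summed endothelial markers, with Tek the most abundant, were 18.7 to 24.7 CPM with adenosine against 5.89 to 8.93 CPM with DMSO in batch 1, and 8.23 to 9.94 CPM with adenosine and 8.9 to 11.4 CPM with AMP against 2.32 to 6.04 CPM with DMSO in batch 2. Summed markers of fibro-adipogenic progenitors were 234 to 245 CPM with adenosine against 269 to 336 CPM with DMSO in batch 1. In batch 2 they were 209 to 225 CPM with adenosine and 301 to 370 CPM with AMP against 298 to 379 CPM with DMSO. Pdgfra and Ly6a reached at most 1.21 CPM and Lum at most 0.563 CPM in batch 1. None of these 3 was among the batch 2 counts. Most of each sum was Cd34, so the sums mainly follow this gene. It had 201 to 219 CPM with adenosine against 288 to 373 CPM with DMSO in batch 2. Dcn had 1.19 to 3.80 CPM with adenosine against 0.158 to 1.01 CPM with DMSO there. Of 3 such markers tested with adenosine in batch 2, 1 was called higher and 2 lower. The batch 1 counts held 7 of 8 leukocyte, 6 of 6 endothelial and 6 of 6 progenitor markers. Those of batch 2 held 2, 2 and 3, so these sums cannot be compared between batches. The part of these marker differences in the results on mitochondrial ribosomal genes was not tested. In bulk RNA, fewer cells of a type and less RNA per cell cannot be told apart.

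The promoter windows of 6 members are printed because each of these genes starts close to a neighbour that is transcribed the other way, and the results below set the gene beside that neighbour. Windows run from 250 bases before to 50 bases after the annotated start, from RefSeq on GRCm38.p6, 5′ to 3′ on the strand of the member. Capitals mark matches on either strand to GCGC, any base and TGCGC in a row (the core bound by NRF1), CCGGAAG (bound by ETS factors such as GABP), AAGATGGCG (bound by YY1) and CACGTG (the E-box bound by MYC). The windows are chr13:14612988-14613287 on the minus strand for Mrpl32, chr14:57825989-57826288 on the plus strand for Mrpl57, chr6:125191950-125192249 on the plus strand for Mrpl51, chr17:12916042-12916341 on the minus strand for Mrpl18, chr4:107066817-107067116 on the minus strand for Mrpl37 and chr7:28741772-28742071 on the minus strand for Mrps12.
Mrpl32: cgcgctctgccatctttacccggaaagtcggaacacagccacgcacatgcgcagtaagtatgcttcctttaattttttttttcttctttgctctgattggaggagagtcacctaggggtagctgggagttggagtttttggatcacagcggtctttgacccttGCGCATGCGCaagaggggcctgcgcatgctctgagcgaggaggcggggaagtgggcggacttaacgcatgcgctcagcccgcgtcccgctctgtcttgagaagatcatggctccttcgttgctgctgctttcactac
Mrpl57: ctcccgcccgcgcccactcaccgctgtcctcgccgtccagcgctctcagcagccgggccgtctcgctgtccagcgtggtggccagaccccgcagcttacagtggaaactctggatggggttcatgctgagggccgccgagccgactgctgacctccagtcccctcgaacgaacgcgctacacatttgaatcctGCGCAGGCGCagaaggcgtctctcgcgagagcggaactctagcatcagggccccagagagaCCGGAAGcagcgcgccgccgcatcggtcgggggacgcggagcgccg
Mrpl51: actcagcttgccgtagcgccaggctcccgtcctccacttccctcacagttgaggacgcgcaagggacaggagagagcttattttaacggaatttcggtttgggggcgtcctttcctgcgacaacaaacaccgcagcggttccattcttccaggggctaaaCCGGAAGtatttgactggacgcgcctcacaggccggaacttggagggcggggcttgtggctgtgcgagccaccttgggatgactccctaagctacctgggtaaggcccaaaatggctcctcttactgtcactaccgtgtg
Mrpl18: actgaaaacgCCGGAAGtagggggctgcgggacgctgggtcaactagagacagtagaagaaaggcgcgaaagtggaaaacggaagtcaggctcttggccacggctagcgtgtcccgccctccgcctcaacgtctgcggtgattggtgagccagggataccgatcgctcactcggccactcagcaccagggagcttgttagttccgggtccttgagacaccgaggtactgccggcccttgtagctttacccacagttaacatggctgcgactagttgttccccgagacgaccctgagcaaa
Mrpl37: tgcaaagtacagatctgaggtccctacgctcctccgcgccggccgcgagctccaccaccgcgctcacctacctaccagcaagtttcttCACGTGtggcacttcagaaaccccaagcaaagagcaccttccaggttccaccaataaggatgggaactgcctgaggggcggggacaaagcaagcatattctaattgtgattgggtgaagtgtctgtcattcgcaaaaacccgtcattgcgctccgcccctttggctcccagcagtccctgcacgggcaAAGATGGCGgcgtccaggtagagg
Mrps12: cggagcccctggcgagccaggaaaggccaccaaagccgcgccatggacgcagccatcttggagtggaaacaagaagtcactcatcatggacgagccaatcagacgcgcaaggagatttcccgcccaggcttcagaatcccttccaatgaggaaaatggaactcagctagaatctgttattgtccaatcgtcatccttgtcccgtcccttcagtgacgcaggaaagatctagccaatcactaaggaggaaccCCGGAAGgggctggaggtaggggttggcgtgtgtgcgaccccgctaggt

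The Mrpl32 window holds an NRF1 match that begins 87 bases before the start. The Mrpl57 window holds an NRF1 match that begins 57 bases before the start and an ETS match that begins at base 5 of the transcript. The windows of Mrpl51, Mrpl18 and Mrps12 each hold 1 ETS match, and that of Mrpl37 holds a YY1 and an E-box match. A window was given for 68 of the 77 members. Taking the first window of each gene, the NRF1 core stood in 19.1% of the 68 members and in 11.3% of the 9399 tested genes of batch 2 with a window, against 4.6% of all 32851 windows. The ETS letters stood in 35.3% of members, 19.5% of tested genes and 8.86% of all windows. The YY1 letters stood in 11.8%, 3.54% and 1.40% in the same order, and the E-box in 7.35%, 10.6% and 7.15%. Of the 12 members that were higher with adenosine in both batches, 3 held the NRF1 core, and of the 9 members with a window that were lower in both, 0 did. These matches describe letters and not bound sites.

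Levels per length spanned a wide range within the family although the proteins are built into 1 particle. In batch 1 DMSO libraries the median member stood at 39.9 FPKM, with 44.2 FPKM for the large subunit and 30.2 FPKM for the small subunit. Mrpl42, a mitochondria-specific large-subunit protein, was highest at 235 ± 15.1 FPKM (SD, n = 3), followed by Mrpl28, a homologue of bacterial L28, at 137 ± 22 FPKM and Mrps16, a homologue of bacterial S16, at 126 ± 3.00 FPKM. The spread of Mrpl28 covers the value of Mrps16, so these neighbours in the order did not differ beyond it. The lowest were Mrps25 at 9.23 ± 0.133 FPKM, Mrpl1 at 9.51 ± 0.924 FPKM and Mrps10 at 9.70 ± 0.786 FPKM. These 3 lay within their spread of each other. The gene length used covers all annotated exon bases, 666 in Mrpl42 and 566 in Mrps16 but 8079 in Mrps10. Before division by length, Mrps10 stood at 79.0 CPM and Mrps16 at 71.8 CPM, so the order rests in part on annotated length. In batch 2 DMSO libraries, normalized separately, the median member stood at 37.8 FPKM and Mrpl42 was again highest at 249 ± 4.64 FPKM, while Mrps34 was lowest at 4.66 ± 1.31 FPKM. The rank order of the 77 members correlated between the DMSO groups of the batches with a Spearman coefficient of 0.97, a description over genes that share lengths and annotation.

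Exon bases of 27 members are shared with another annotated gene, and Smart-seq2 libraries keep no strand, so the reads of such stretches are uncertain. The share exceeded 50% of the exon bases in 2 members, Mrps34 with 77.8% (Mapk8ip3 on the opposite strand and a further gene on the same strand) and Mrps25 with 53.7% (Nr2c2, opposite strand). Among other members named below, shares above 10% were 37.8% in Mrps30, 26.3% in Mrpl24, 15.4% in Mrps24, 15.1% in Mrps6, 14.1% in Mrpl10, 13.1% in Mrpl12, 11.9% in Mrps7, 11.6% in Mrpl48, 11.2% in Mrpl14 and 10.1% in Mrpl18. Mrpl54, Mrps28, Mrps36, Mrpl32, Mrpl57, Mrps14, Mrpl41 and Mrps12 share none. The median coefficient of variation of a member within a group was 5.01% to 9.98% across the 5 groups.

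With 0.05 mM adenosine in batch 1 the family split. Of the 77 members, 12 were higher and 11 lower at an adjusted p under 0.05 (edgeR quasi-likelihood test, Benjamini-Hochberg over 13842 genes), and 54 were not called. In this comparison 39.2% of all genes tested were called, 19.6% higher and 19.5% lower, so the 29.9% of members called lies under the background. Groups did not overlap in 19 members that lay higher and 16 that lay lower, against 51.4% of all genes in either direction. The median log2 fold change of members was 0.03, and that of all genes was also 0.03. Without the third DMSO library or without the third adenosine library, 7 members were called lower. Scaling by library totals moved the split to 24 higher and 6 lower, with medians of 0.23 for members and 0.22 for all genes.

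Mrpl54, a large-subunit protein found only in mitochondria, gave the largest fall of the family in batch 1. Its levels were 39.0, 27.0 and 32.3 CPM in adenosine libraries, against 73.6, 82.6 and 95.5 CPM in DMSO libraries. All 3 adenosine libraries were below all DMSO libraries, and the fitted change was -1.36 ± 0.16 on the log2 scale (± SE here and below; adjusted p = 4.74e-05). Mrps28, a small-subunit protein, had 54.2, 55.5 and 55.2 CPM with adenosine against 88.5, 93.6 and 109 CPM with DMSO (log2 fold change -0.82 ± 0.13, adjusted p = 3.04e-04). The adenosine libraries of this gene lay close together and well below the lowest DMSO library. Mrps36, the gene of the 2-oxoglutarate dehydrogenase protein, had 17.1, 26.4 and 19.4 CPM with adenosine against 43.8, 48.3 and 40.9 CPM with DMSO (log2 fold change -1.08 ± 0.18, adjusted p = 6.24e-04).

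Mrpl48, another large-subunit protein specific to mitochondria, stood at 34.8, 46.7 and 31.2 CPM with adenosine and at 75.3, 80.9 and 73.5 CPM with DMSO (log2 fold change -1.03 ± 0.16, adjusted p = 3.11e-04). Mrpl18, the homologue of the bacterial L18 protein that binds the small RNA of the large subunit, stood at 55.7, 54.5 and 58.5 CPM with adenosine and at 108, 88.8 and 91.5 CPM with DMSO (log2 fold change -0.77 ± 0.13, adjusted p = 4.72e-04). Groups of both genes were apart. Mrps15, a homologue of bacterial S15, had 69.1, 70.4 and 51.9 CPM with adenosine against 79.8, 99.7 and 119 CPM with DMSO (log2 fold change -0.64 ± 0.17, adjusted p = 0.00900). These 6 members kept their call under every alternative run for batch 1, library totals included.

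Among the members that rose, Mrpl32 led. This large-subunit protein is known in yeast and mouse to be cleaved by the m-AAA protease of the inner membrane before it joins the ribosome. Its levels were 115, 131 and 128 CPM in adenosine libraries, against 60.8, 54.8 and 59.0 CPM in DMSO libraries. The groups were far apart (log2 fold change 1.10 ± 0.12, adjusted p = 2.40e-05). Mrpl57, a small mitochondria-specific protein of the large subunit, had 165, 103 and 109 CPM with adenosine against 61.8, 58.6 and 86.9 CPM with DMSO (log2 fold change 0.86 ± 0.20, adjusted p = 0.00402). Its first adenosine library was well above the other two, and all 3 exceeded the DMSO libraries.

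The next 4 rises were in small-subunit genes. Mrps25 had 92.3, 116 and 107 CPM with adenosine against 62.1, 61.1 and 60.5 CPM with DMSO (log2 fold change 0.78 ± 0.13, adjusted p = 4.32e-04). Mrps24, the homologue of bacterial S3, had 193, 150 and 151 CPM against 97.4, 83.9 and 123 CPM in DMSO libraries (0.70 ± 0.16 on the log2 scale, adjusted p = 0.00353). Neither gene overlapped between groups. Mrps6, a homologue of bacterial S6, and Mrps31, specific to mitochondria, rose by 0.70 ± 0.13 and 0.57 ± 0.15 on the log2 scale (adjusted p = 8.61e-04 and 0.00790).

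**Figure D1:**
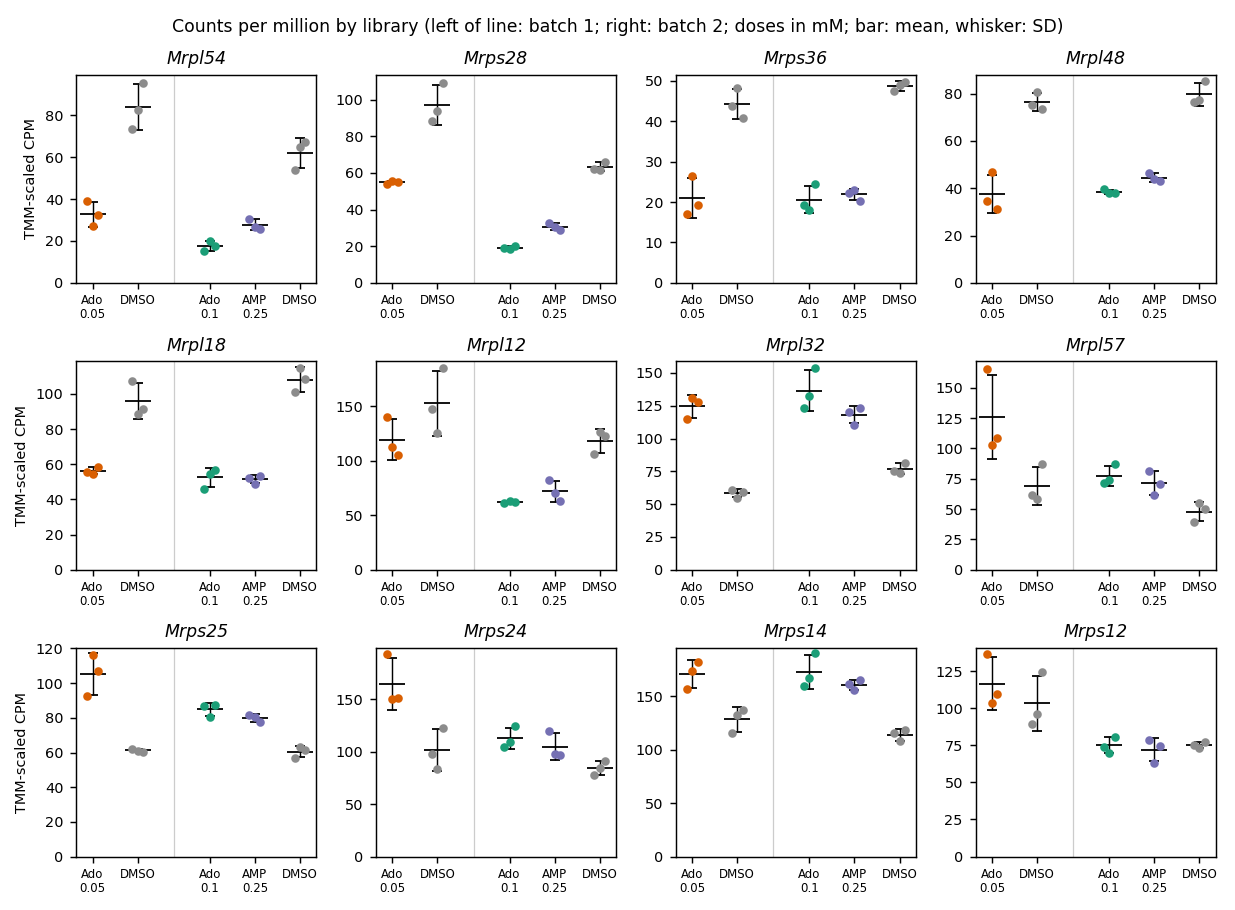
TMM-scaled CPM of 12 members in each library (points), with the mean (bar) and SD (whisker) of 3 libraries per group; batch 1 is left of the grey line and batch 2 right of it, and treated groups stand left of DMSO. The first 5 panels show genes whose treated libraries all lie below the DMSO libraries of their batch, Mrpl32 to Mrps14 show genes whose treated libraries all lie above them, and Mrps12 shows overlapping groups. Mrpl12 overlaps in batch 1 and is lower in each treated library of batch 2.

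In batch 2, 0.1 mM adenosine lowered more members than it raised when libraries were scaled by TMM, and the order turned round under library totals. Of the 77 members, 16 were higher, 32 lower and 29 not called (35 higher and 13 lower with library totals). The background was 69.4% of 13063 genes, 34.9% higher and 34.5% lower, against 62.3% of members. Groups were apart with adenosine above DMSO in 17 members (36.7% of all genes) and below it in 40 (36.9% of all genes). The median log2 fold change of members was -0.17, beside 0.01 for all genes tested. With library totals the medians were 0.13 and 0.32, so that the members' median lay 0.19 below that of all genes under either scaling. No member called under TMM was called the other way with library totals. By subunit, the large subunit had 7 higher and 22 lower of 50, and the small subunit 9 higher and 9 lower of 26.

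The strongest falls among members in batch 2 were in Mrpl54 and Mrps28. Mrpl54 stood at 15.3, 19.9 and 17.7 CPM in adenosine libraries, against 54.0, 65.0 and 67.3 CPM in DMSO libraries (log2 fold change -1.81 ± 0.13, adjusted p = 6.50e-09). Mrps28 stood at 18.9, 18.6 and 20.2 CPM with adenosine and at 62.3, 61.5 and 66.2 CPM with DMSO (log2 fold change -1.72 ± 0.10, adjusted p = 8.85e-10). The adenosine and DMSO libraries of both genes were far apart. Mrps36 had 19.2, 18 and 24.3 CPM against 47.4, 49.0 and 49.7 CPM in DMSO libraries (-1.25 ± 0.12 on the log2 scale, adjusted p = 2.16e-07).

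Mrpl48 and Mrpl18 followed with log2 fold changes of -1.05 ± 0.08 and -1.04 ± 0.09 (adjusted p = 2.80e-08 and 7.22e-08). Mrpl12, the protein of the flexible stalk that recruits translation factors and that also binds the mitochondrial RNA polymerase, had 60.8, 63.2 and 62.3 CPM with adenosine against 106, 126 and 122 CPM with DMSO. Its log2 fold change was -0.93 ± 0.10 (adjusted p = 4.84e-07), and the 3 adenosine libraries lay close together far below DMSO. In batch 1 the same gene had 140, 112 and 105 CPM with adenosine against 148, 126 and 185 CPM with DMSO, groups that overlapped and were not called (log2 fold change -0.36 ± 0.16, adjusted p = 0.0899).

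Under TMM, rises in batch 2 were smaller in size than these falls. Library totals moved members upward (median 0.13 in place of -0.17), so this order depends on the scaling. Mrpl32 had 123, 132 and 154 CPM in adenosine libraries against 75.6, 73.8 and 81.5 CPM in DMSO libraries (log2 fold change 0.83 ± 0.09, adjusted p = 6.19e-07). Mrpl41, a mitochondria-specific large-subunit protein, had 73.3, 74.9 and 88.6 CPM against 47.1, 44.5 and 47.4 CPM with DMSO (0.77 ± 0.12 on the log2 scale, adjusted p = 3.38e-05). Both were apart from DMSO in every library. Mrpl57, Mrpl10, Mrpl24 and Mrps14 rose by 0.69, 0.66, 0.65 and 0.60 on the log2 scale, each with groups that did not overlap. Mrpl10, Mrpl24 and Mrps14 are homologues of bacterial ribosomal proteins, and Mrpl10 forms the base on which the Mrpl12 stalk is mounted.

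AMP at 0.25 mM gave 15 members higher, 34 lower and 28 not called (28 higher and 11 lower with library totals). The background was 65.6% of all genes, 33.7% higher and 31.8% lower, against 63.6% of members. AMP libraries lay wholly above DMSO in 17 members (35.7% of all genes) and wholly below it in 35 (34.9% of all genes). The members' median log2 fold change was -0.14, beside 0.01 for all genes, and 0.13 beside 0.28 with library totals. The large subunit had 9 higher and 25 lower, and the small subunit 6 higher and 8 lower. These values rest on the same 3 DMSO libraries as those of adenosine in batch 2, so the lists are not independent.

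Under AMP the 6 largest falls came from Mrpl54, Mrps36, Mrpl18, Mrps28, Mrpl48 and Mrpl12. Mrpl54 had 30.7, 26.7 and 25.7 CPM with AMP against the DMSO values given above (log2 fold change -1.16 ± 0.12, adjusted p = 7.70e-07). Mrps28 had 32.8, 30.5 and 28.8 CPM with AMP (log2 fold change -1.05 ± 0.10, adjusted p = 1.76e-07). Each AMP library of these 2 genes lay below every DMSO library and above every adenosine library of the batch. Mrpl18 had 52.4, 48.8 and 53.2 CPM with AMP against 101, 115 and 109 CPM with DMSO (-1.07 ± 0.09 on the log2 scale, adjusted p = 8.38e-08). Log2 fold changes of Mrps36, Mrpl48 and Mrpl12 were -1.15 ± 0.12, -0.84 ± 0.08 and -0.72 ± 0.10.

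The largest rises under AMP were in Mrpl24, Mrps34, Mrpl32, Mrpl57, Mrps14 and Mrpl41. Mrpl24 had 69.9, 55.2 and 59.0 CPM with AMP against 40.1, 41.4 and 36.3 CPM with DMSO (log2 fold change 0.64 ± 0.11, adjusted p = 8.06e-05). Mrps34, a mitochondria-specific small-subunit protein, had 17.2, 13.0 and 14.8 CPM with AMP against 6.63, 10.9 and 11.6 CPM with DMSO (0.64 ± 0.20, adjusted p = 0.0118). Its counts are low and most of its exon bases are shared with other genes, and in batch 1 it had 41.0, 25.3 and 24.5 CPM with adenosine against 24.6, 24.3 and 39.0 CPM with DMSO, which overlapped. Mrpl32 had 120, 111 and 123 CPM with AMP, above each DMSO library (0.62 ± 0.09, adjusted p = 1.78e-05). Mrpl57, Mrps14 and Mrpl41 rose by 0.58, 0.50 and 0.46 on the log2 scale.

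**Figure D2:**
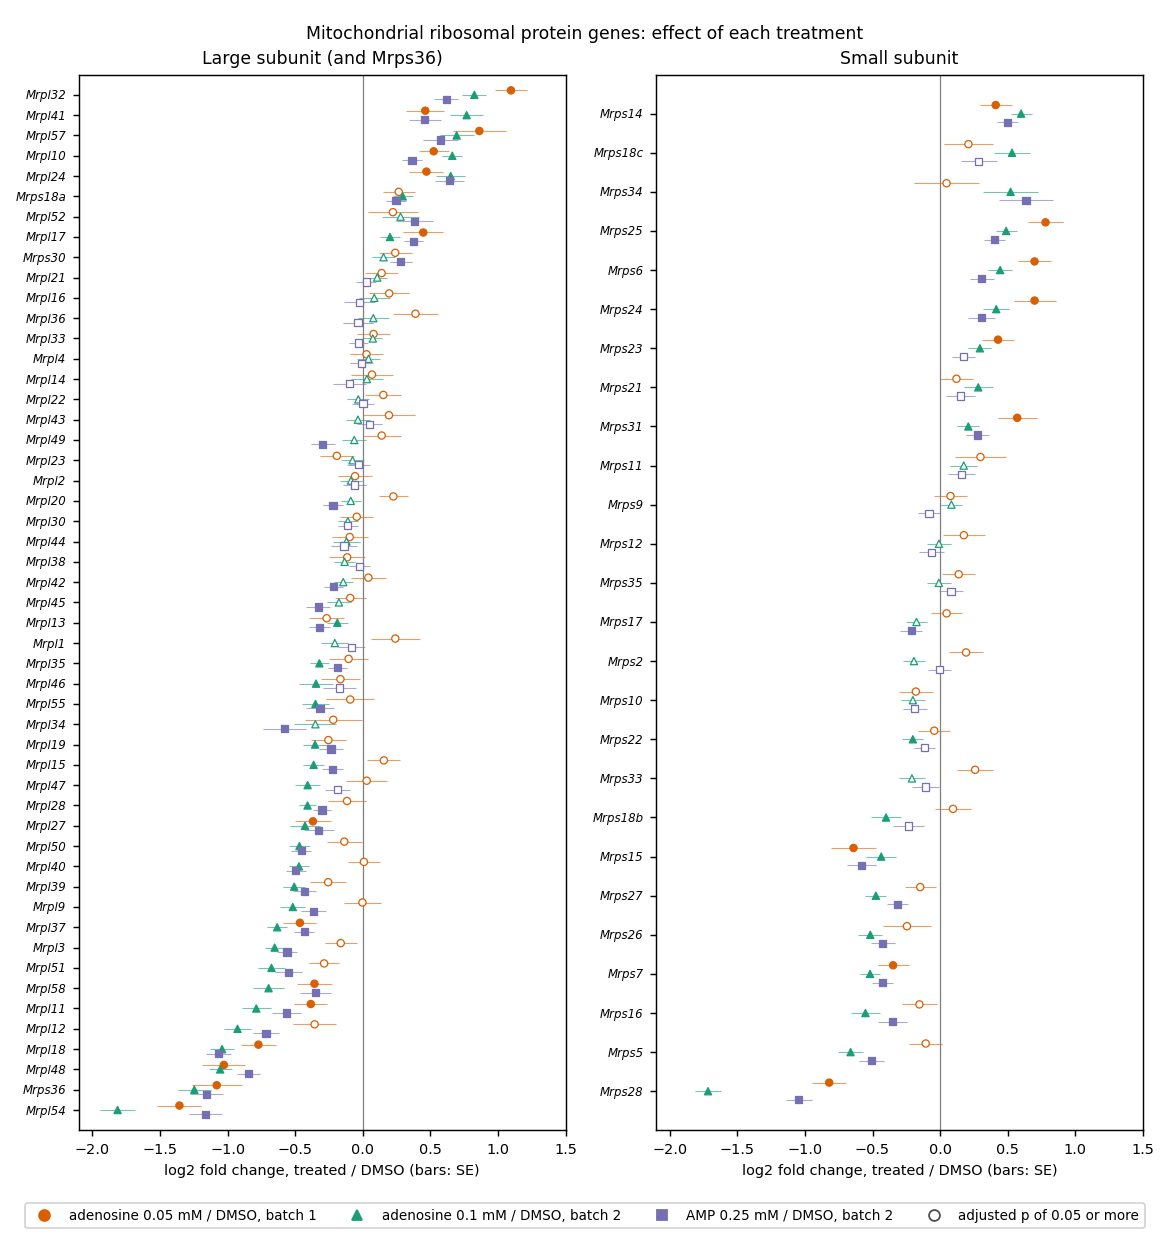
Log2 fold change with its SE for the 77 members in the 3 comparisons with DMSO, large subunit and Mrps36 on the left and small subunit on the right, ordered by the effect of 0.1 mM adenosine; filled symbols have an adjusted p under 0.05. The 0.05 mM adenosine points of batch 1 lie to the right of the batch 2 points in most rows, and with library totals in place of TMM the members' medians move to 0.23, 0.13 and 0.13 for the 3 comparisons in legend order.

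Set directly against each other at these unequal doses, AMP and adenosine differed in 3 of 77 members, 2 higher and 1 lower with AMP. The background was 6.51% of genes, 4.52% higher and 2% lower. Mrps28 and Mrpl54 were higher with AMP than with adenosine by 0.67 ± 0.10 and 0.65 ± 0.13 on the log2 scale (adjusted p = 8.53e-04 and 0.00591). Mrpl10 had 96.6, 90.2 and 86.4 CPM with AMP against 111, 111 and 113 CPM with adenosine, a difference of -0.30 ± 0.07 (adjusted p = 0.0198), and this call was lost when the second or the third adenosine library, or the second or the third AMP library, was left out. For the other members the difference did not pass the test, which does not show that the compounds act alike. The approximate 95% interval of the difference lay within 1 log2 unit of 0 for all 77 members and within 0.5 log2 units for 71. Dose and compound cannot be told apart here.

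Adenosine was tested in both batches on separate libraries, and the calls on members pointed the same way. Each of the 23 members called in batch 1 was called in batch 2 in the same direction, 12 higher and 11 lower, which is 47.9% of the 48 members called in batch 2. Over all 12608 genes tested in both batches, 4587 of the 5132 genes called in batch 1 were called the same way in batch 2, or 89.4%, and these were 52.1% of the 8809 called in batch 2. Called or not, log2 fold changes had the same sign in 62 of the 77 members, or 80.5%, against 80.9% of all genes. Effects of the 77 members correlated across batches with a Pearson coefficient of 0.89 and a Spearman coefficient of 0.86, against 0.83 and 0.82 over all genes. These coefficients run across genes, which are not independent replicates. The 12 members that rose in both were Mrpl10, Mrpl17, Mrpl24, Mrpl32, Mrpl41, Mrpl57, Mrps6, Mrps14, Mrps23, Mrps24, Mrps25 and Mrps31, 6 from each subunit. The 11 that fell in both were Mrpl11, Mrpl18, Mrpl27, Mrpl37, Mrpl48, Mrpl54, Mrpl58, Mrps7, Mrps15, Mrps28 and Mrps36, with 7 from the large and 3 from the small subunit beside Mrps36.

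**Figure D3:**
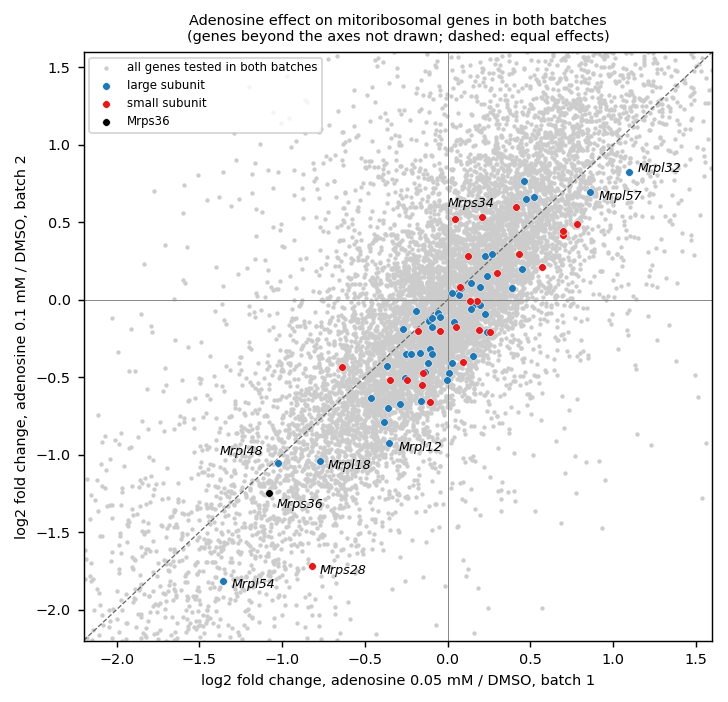
Log2 fold change with 0.05 mM adenosine in batch 1 (x axis) against 0.1 mM adenosine in batch 2 (y axis) for all genes tested in both (grey) and the members by subunit (colour), with equal effects on the dashed line. Most members lie below the dashed line, and Mrpl54 is lowest and Mrpl32 highest of the members in both batches.

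The adenosine effect was lower in batch 2 than in batch 1 for much of the family. In a fit of all 15 libraries, the batch 2 effect minus the batch 1 effect was below 0 in 63 of 77 members, or 81.8%, against 49.9% of all genes. Its median was -0.18 over members and 0.00 over 13042 genes, and with library totals -0.07 and 0.11. It passed the test in 0 members as higher and in 7 as lower, at a background of 12% of genes, 6.3% higher and 5.69% lower. The count was 3 without the third batch 1 adenosine library or the second batch 2 DMSO library. It was 4 without the first batch 2 adenosine library, the second batch 1 DMSO library or the third batch 2 DMSO library, and 12 without the first batch 1 adenosine library. The 7 were Mrps28, Mrps5, Mrpl15, Mrpl9, Mrpl3, Mrpl40 and Mrps33. With library totals 1 remained, Mrps28, whose effect was -1.72 in batch 2 and -0.82 in batch 1. Dose and batch cannot be told apart in this difference.

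A further 21 members were called in none of the 3 comparisons with DMSO. They were Mrpl1, Mrpl2, Mrpl4, Mrpl14, Mrpl16, Mrpl21, Mrpl22, Mrpl23, Mrpl30, Mrpl33, Mrpl36, Mrpl38, Mrpl43, Mrpl44, Mrps2, Mrps9, Mrps10, Mrps11, Mrps12, Mrps33 and Mrps35. Their log2 fold changes ran from -0.19 to 0.39 in batch 1, from -0.21 to 0.17 with adenosine in batch 2 and from -0.19 to 0.16 with AMP. Mrps12, the homologue of bacterial S12 in the decoding centre, had 74.1, 69.9 and 80.6 CPM with adenosine, 78.5, 63.1 and 74.7 CPM with AMP and 75.3, 73.2 and 77.5 CPM with DMSO in batch 2. The groups overlapped throughout, and the log2 fold change with adenosine was -0.01 ± 0.09, which became 0.30 with library totals. No member was called in opposite directions in any pair of the comparisons with DMSO.

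Members of the stalk of the large subunit differed in direction. The stalk base protein Mrpl10 had 130, 126 and 128 CPM with adenosine against 84.6, 93.7 and 88.4 CPM with DMSO in batch 1, and 111, 111 and 113 CPM with adenosine, 96.6, 90.2 and 86.4 CPM with AMP and 68.6, 73.7 and 69.9 CPM with DMSO in batch 2. Its log2 fold changes were 0.52, 0.66 and 0.36 in the 3 comparisons. The stalk protein Mrpl12, which Mrpl10 carries, had -0.36 (not called), -0.93 and -0.72. Mrpl11, the other protein of the stalk base, singled out after its values were seen, had -0.38, -0.79 and -0.56 and was called lower in all 3. Its batch 1 call was kept in 8 of 13 alternatives and lost with library totals, with the replicate block and in 3 fits that left out 1 library, where the adjusted p reached 0.244 at most. Mrps18a, placed on the large subunit, had 0.27 (not called), 0.30 and 0.25. Mrps30, also of the large subunit, had 0.24 and 0.15 (neither called) and 0.28, which was called.

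The ribosomal RNAs of the mitochondrion also went opposite ways. The small-subunit RNA mt-Rnr1 had 227, 379 and 318 CPM with adenosine against 160, 182 and 209 CPM with DMSO in batch 1, and 545, 476 and 479 CPM with adenosine, 315, 286 and 253 CPM with AMP and 207, 171 and 196 CPM with DMSO in batch 2. Every treated library was above the DMSO libraries of its batch, with log2 fold changes of 0.75 ± 0.17, 1.39 ± 0.09 and 0.57 ± 0.09 (adjusted p = 0.00418, 4.74e-09 and 6.59e-05). The large-subunit RNA mt-Rnr2 had log2 fold changes of -0.41 ± 0.14, -0.48 ± 0.15 and -0.51 ± 0.15 (adjusted p = 0.0383, 0.00880 and 0.00629), and none of these was called with library totals (-0.21, -0.17 and -0.25). The Smart-seq2 protocol primes cDNA at poly(A) tails. Of the messenger RNAs of the mitochondrial genome, 0 of 10 tested were higher and 2 lower in batch 1, 4 of 13 were higher and 3 lower with adenosine in batch 2, and 2 were higher and 2 lower with AMP.

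Within 1000 bases of its annotated start, 32 members have a named gene that starts on the other strand, in 31 distinct pairs, and 28 pairs could be tested. Both genes were called in 3 pairs in batch 1, 1 of them in the same direction. With adenosine in batch 2 both were called in 15 pairs, 9 in the same direction, and with AMP also in 15 pairs, 9 in the same direction. Since most genes were called in batch 2, these counts are given as a description.

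The pairs described here were picked after their values were seen. Mrpl57, whose window is printed above, starts 76 bases from Ska3, a gene of the spindle and kinetochore complex. Ska3 had 3.9, 5.21 and 3.76 CPM with adenosine against 25.4, 30.9 and 33.9 CPM with DMSO in batch 2, while Mrpl57 had 71.5, 73.9 and 87.0 CPM with adenosine against 39.0, 54.7 and 50.1 CPM with DMSO. Log2 fold changes of Ska3 were -3.05, -2.80 and -2.75 in the 3 comparisons, and those of Mrpl57 were 0.86, 0.69 and 0.58. Mrpl37, a mitochondria-specific large-subunit protein, starts 120 bases from Cyb5rl and had -0.46, -0.63 and -0.43, beside 0.83, 0.72 and 0.72 for Cyb5rl.

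Mrpl32 starts 205 bases from Psma2, a subunit of the proteasome core, which had log2 fold changes of 0.16, 0.09 and 0.07, not called in any comparison under TMM but called higher with library totals in all 3. Mrps12 starts 148 bases from Sars2, the mitochondrial seryl-tRNA synthetase. Sars2 had 5.17, 6.47 and 6.3 CPM with adenosine, 11.4, 10.8 and 9.75 CPM with AMP and 22.8, 24.2 and 25.4 CPM with DMSO in batch 2, whereas the groups of Mrps12 overlapped. Its log2 fold changes were -1.51, -2.01 and -1.18.

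Other pairs fell together. Mrpl51, a mitochondria-specific large-subunit protein, starts 100 bases from Ncapd2, a condensin subunit used in mitosis. Ncapd2 had log2 fold changes of -2.07, -2.58 and -2.81, beside -0.29 (not called), -0.68 and -0.55 for Mrpl51. Mrpl18 and Tcp1, a subunit of the cytosolic chaperonin, share 141 exon bases at their starts, so reads there cannot be assigned to one of them. In batch 2 both fell, with -1.04 and -1.07 for Mrpl18 and -0.96 and -0.89 for Tcp1 with adenosine and AMP, and in batch 1 Mrpl18 had -0.77 and Tcp1 -0.27 (not called).

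**Figure D4:**
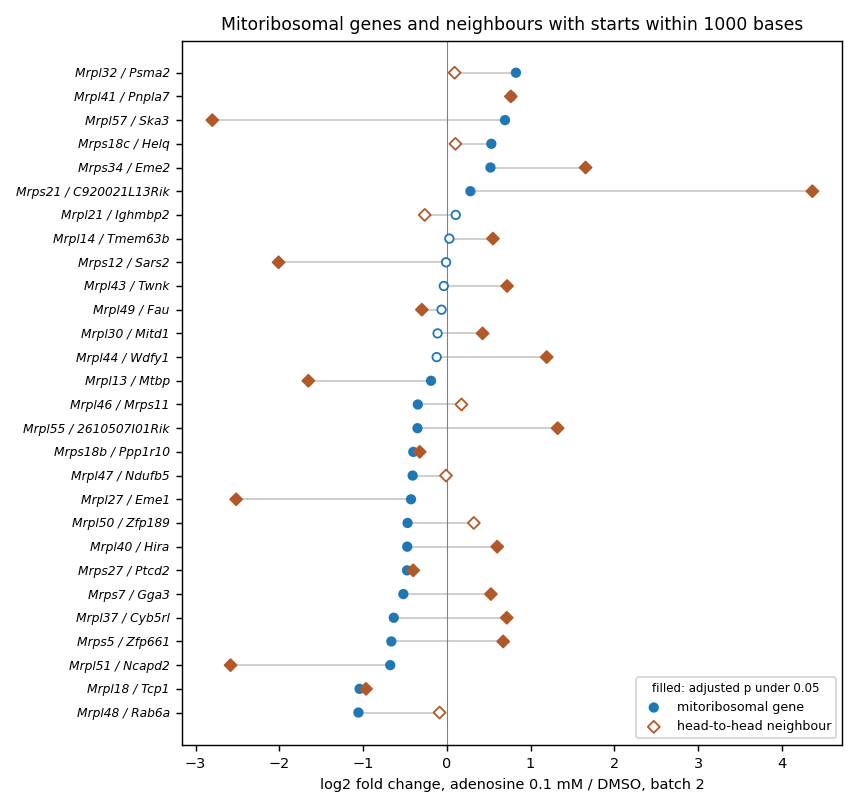
Log2 fold change with 0.1 mM adenosine in batch 2 for each tested pair of a member (circle) and its head-to-head neighbour (diamond), joined by a line, filled where the adjusted p was under 0.05. The lines of Mrpl57 and Ska3 and of Mrps12 and Sars2 are among the long ones, with the neighbour far to the left, and Mrpl18 and Tcp1 nearly coincide.

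Other genes of the mitochondrial translation pathway were mixed as well, in lists chosen with earlier results known. Of 11 translation factors tested, 1 was higher and 1 lower in batch 1, 2 higher and 6 lower with adenosine in batch 2, and 2 higher and 3 lower with AMP. Gfm1, the mitochondrial elongation factor G, had -0.40 (not called with library totals), -0.74 and -0.69 on the log2 scale. Mtfmt, which formylates the initiator methionyl-tRNA, had 1.01 and 0.76 with adenosine in batches 1 and 2. Another factor had the highest log2 fold change of the list with adenosine in batch 2, at 1.90. Of 25 assembly factors, 6 were higher and 0 lower in batch 1, 10 higher and 6 lower with adenosine in batch 2, and 11 higher and 3 lower with AMP. Of 21 genes for the upkeep and expression of mitochondrial DNA, 3 were higher and 2 lower in batch 1, 3 higher and 6 lower with adenosine in batch 2, and 4 higher and 5 lower with AMP. Polg2, the accessory subunit of the mitochondrial DNA polymerase, had 0.92, 1.22 and 1.15. Among the assembly factors Ngrn, needed for the large-subunit RNA, had 0.96, 0.88 and 0.67, and Fastkd2, an RNA-binding protein of large-subunit assembly, had -0.99 and -0.75 with adenosine and AMP in batch 2. Of 5 mitochondrial ribosomal proteins with other symbols, 1 was higher and 1 lower in batch 1, and 2 were higher and 2 lower in both comparisons of batch 2. Among them Dap3 of the small subunit had 0.41, 0.50 and 0.31, and Aurkaip1, also of the small subunit, had -0.49, -0.48 and -0.31, the last 3 values not called with library totals.

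Among known regulators of nuclear genes for mitochondria, Ppargc1b, a transcriptional coactivator, had the largest falls of the list in batch 2. Its levels were 1.03, 2.46 and 1.77 CPM with adenosine, 5.42, 6.02 and 4.91 CPM with AMP and 18.4, 24.1 and 20.8 CPM with DMSO in batch 2, with log2 fold changes of -3.56 ± 0.24 and -1.95 ± 0.21. In batch 1 it had 4.46, 3.69 and 2.59 CPM with adenosine against 11.3, 13.8 and 13.7 CPM with DMSO (-1.85 ± 0.28). Nrf1, whose motif is marked above, had 45.6, 37.6 and 36.2 CPM with adenosine, 38.4, 41.9 and 38.6 CPM with AMP and 58.8, 67.4 and 65.4 CPM with DMSO in batch 2, and its log2 fold changes were -0.68 and -0.69 there and -0.16 (not called) in batch 1. Gabpa and Gabpb1, the subunits of the ETS factor GABP, had -0.61 and -0.62 with adenosine and -0.57 each with AMP in batch 2, and -0.09 and 0.22 (not called) in batch 1. Yy1 rose by 1.05 and 1.01 with adenosine and AMP in batch 2 and had 0.22 (not called) in batch 1.

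Mycn fell by 1.55, 2.02 and 0.95 on the log2 scale in batch 1 adenosine, batch 2 adenosine and AMP. Myc had -0.09 and 0.10 in batch 1 and with AMP (neither called) and -0.22 with adenosine in batch 2, which was called under TMM and had 0.09 (not called) with library totals. Esrra, an orphan nuclear receptor, had -1.49 in batch 1, and -0.51 and -0.22 (neither called) with adenosine and AMP in batch 2. Pprc1 had -0.02 in batch 1 and -0.05 with AMP (neither called) and -0.33 with adenosine in batch 2, which was not called with library totals. Max had 0.16, -0.27 and -0.03, none called. Ppargc1a was tested in batch 1 alone, where it had 1.93 ± 0.91 (adjusted p = 0.113).

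Counts for the cytosolic ribosome are set beside these. Of 77 cytosolic ribosomal protein genes, 0 were higher and 62 lower in batch 1, 0 and 71 with adenosine in batch 2, and 0 and 72 with AMP, with medians of -0.94, -0.97 and -0.90 beside 0.03, -0.17 and -0.14 for the mitochondrial members. With library totals the cytosolic medians stayed at -0.74, -0.66 and -0.64. Of 74 nuclear-coded subunits of oxidative phosphorylation, 7 were higher and 11 lower in batch 1, 17 and 24 with adenosine in batch 2, and 11 and 29 with AMP, with medians of -0.04, -0.02 and -0.12 that became 0.15, 0.29 and 0.15 with library totals. The difference between these lists was not tested.

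**Figure D5:**
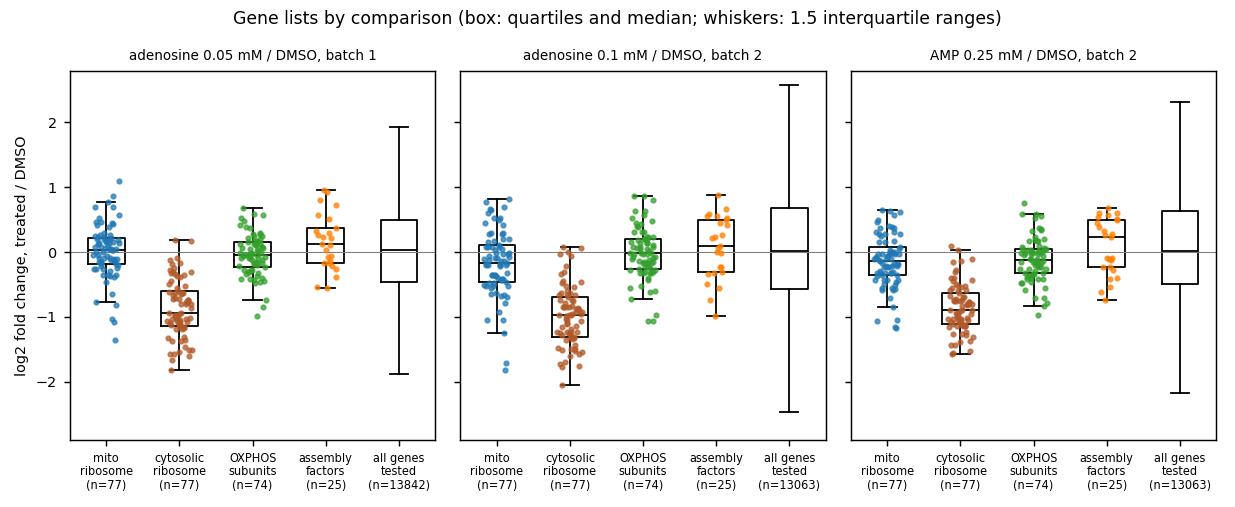
Log2 fold changes of the mitochondrial ribosomal members, cytosolic ribosomal proteins, oxidative phosphorylation subunits, assembly factors and all genes tested in the 3 comparisons with DMSO (points: genes; box: quartiles and median). The cytosolic ribosomal genes have medians of -0.94, -0.97 and -0.90 and the mitochondrial members 0.03, -0.17 and -0.14, the mitochondrial medians turning to 0.23, 0.13 and 0.13 with library totals.

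Summed over the family, levels were lower in every treated library of batch 2 than in its DMSO libraries under TMM, and the raw share pointed the other way. The summed level of the 77 members was 7007 ± 153 CPM with adenosine and 6835 ± 490 CPM with DMSO in batch 1 (SD, n = 3 each), which differ by less than the spread between DMSO libraries. In batch 2 it was 5571 ± 287 CPM with adenosine, 5609 ± 251 CPM with AMP and 6134 ± 152 CPM with DMSO. As a share of raw counts the family made up 0.748% ± 0.00856 with adenosine and 0.637% ± 0.0347 with DMSO in batch 1, and 0.605% ± 0.0487 with adenosine, 0.591% ± 0.0291 with AMP and 0.537% ± 0.00492 with DMSO in batch 2. The labels name no spike-in, so an absolute level cannot be set from these files.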

How the data were processed

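RNA of 15 Smart-seq2 libraries was measured. The authors deposited raw read counts per gene for each batch and FPKM values per gene. The submitters' processing notes name mm10 as the build and Trim Galore, STAR, DESeq2 and featureCounts of Subread as tools. Per the file headers, batch 1 was counted with featureCounts 1.6.4 without a strand option. For batch 2 the counting settings, and for the other tools the versions, were not stated. The authors' deposited table of batch 1 also holds their log2 fold changes (coded DMSO over adenosine) and adjusted p-values. In the authors' deposited values 23 members pass 0.05, 12 higher and 11 lower with adenosine, and all 23 have the same call here. The batch 2 counts had been filtered before deposit, with a smallest total of 101 over 9 libraries, and 43 lines without a gene name, with 0.0589% of counts, were left out.

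Groups came from the labels. Counts were tested with edgeR 4.0.16 in R 4.3.3 (TMM scaling, filterByExpr, quasi-likelihood F test, Benjamini-Hochberg over all genes tested, calls at 0.05), per batch, with adenosine against DMSO in both batches, AMP against DMSO, AMP against adenosine, and the difference of the adenosine effects in 1 fit of 15 libraries. SE is the log2 fold change over the root of F. On simulated counts for batch 1 with planted changes of 2 log2 units up or down, 198 of 200 changed genes were recovered. The fitted change of every member was smaller than that, and recovery of smaller changes was not tested. As many genes were planted up as down, so the choice of scaling was not tested either. Alternatives were library totals without TMM, no filter, a replicate block, DESeq2 1.42.0, limma 3.58.1 on log2(FPKM + 1) and log2(FPKM + 0.1), 2 groups alone and leaving out each library. Each of the 15 pairs of same-group libraries differed beyond sampling noise (chi-square per degree of freedom 3.54 to 34.4).

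The members and gene lists were chosen with earlier results of these data known. Named in each comparison with DMSO are the 6 largest rises and 6 largest falls among called members whose groups do not overlap, the 3 highest and 3 lowest members by FPKM in batch 1 DMSO, members called in none of the comparisons, the 6 largest called differences in the other tests, Mrps18a, Mrps30, Mrps36, Mrpl12 and Mrps12, up to 3 called genes of other lists and every measured regulator. Head-to-head neighbours and stretches of shared exon were read from GENCODE M21. Protein sequences were not used here.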

Additional observations from a re-analysis of the deposited data

Results flagged for a closer look

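For 7 members the effect of adenosine differed between the batches by a test of the difference itself, the batch 2 effect (0.1 mM) minus the batch 1 effect (0.05 mM) in a fit of all 15 libraries. Dose and batch cannot be told apart, and the cause was not tested. Mrps28 differed most, by -0.89 ± 0.15 on the log2 scale (SE, edgeR adjusted p = 0.00124), with effects of -1.72 in batch 2 and -0.82 in batch 1. It is the only member of the 7 that kept its call under every alternative. Mrps5, a homologue of bacterial S5, differed by -0.55 and Mrpl3, a homologue of bacterial L3, by -0.48, and both were called lower in batch 2 but not in batch 1. Mrpl15, Mrpl9 and Mrpl40 differed by -0.51, -0.51 and -0.48, and were called lower in batch 2 while their batch 1 effects were 0.16, -0.0023 and 0.0085. Mrps33 differed by -0.46 with an effect called in neither batch (-0.21 in batch 2 and 0.26 in batch 1).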

How the results depend on the processing

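The scaling moved the results most. With library totals in place of TMM factors, members called were 24 higher and 6 lower with adenosine in batch 1, 35 higher and 13 lower with adenosine in batch 2, and 28 higher and 11 lower with AMP, with member medians of 0.23, 0.13 and 0.13. The same setting gave a median of -0.0062 for AMP against adenosine, and 1 member lower with a median of -0.073 for the difference between batches. Sign changes with no call under either scaling were left out of the next count. The setting turned 13 named values round that were called under TMM or library totals. With adenosine in batch 2 these were Mrpl2 (0.22), Mrpl22 (0.28), Mrpl23 (0.24), Mrpl30 (0.20), Mrpl43 (0.27), Mrps12 (0.30) and Mrps35 (0.30). With AMP they were Mrpl42 (0.051), Mrpl23 (0.24), Mrpl33 (0.24), Mrpl38 (0.24), Mrpl4 (0.26) and Mrps2 (0.26). Of these only Mrpl42 had been called under TMM. Relative to the median of all genes the members' median was within 0.01 of its TMM value in each comparison, since the setting shifts all genes together.

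Without the filter on low counts the batch 1 median was -0.017. The replicate block gave 7 members lower in batch 1 and 2 lower for AMP against adenosine, and changed no other count of calls by over 1.5 times. Replicate numbers were not taken as pairs in the main fits. Deviations of same-numbered libraries correlated between -0.06 and 0.11 in batch 1 and between -0.08 and 0.32 in batch 2. In batch 2 their median was 0.12, so a pairing there is not excluded. The median of -0.07 for libraries of different number is no separate yardstick. Deviations were taken from group means, which ties it to the value for same-numbered libraries. With the block, genes called were 9239 beside 9067 for adenosine and 8742 beside 8564 for AMP in batch 2. In batch 1 they were 5004 beside 5420. DESeq2 and limma on FPKM moved no count of members by over 1.5 times.

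Leaving out 1 library gave 8 to 13 members higher and 7 to 13 lower in batch 1, with medians of -0.038 to 0.062, and the fewest lower calls (7) came without the third DMSO or the third adenosine library. Ranges were 12 to 17 higher and 30 to 34 lower with medians of -0.18 to -0.14 for adenosine in batch 2, and 12 to 16 higher and 28 to 34 lower with medians of -0.18 to -0.10 for AMP. AMP against adenosine had 2 higher in each case and 0 to 1 lower, with medians of 0.0078 to 0.0757. The difference between batches had 3 to 12 lower, with medians of -0.25 to -0.13, most without the first batch 1 adenosine library. Calls kept under every alternative were 7 of 12 higher and 6 of 11 lower in batch 1, 12 of 16 and 13 of 32 with adenosine in batch 2, and 12 of 15 and 11 of 34 with AMP. With 3 libraries a group, SE of single members were 0.06 to 0.24 on the log2 scale, and a call needed a change well above its SE. For AMP against adenosine, Mrpl58 had 0.35 ± 0.12 and was not called (edgeR adjusted p = 0.0921).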
